A study of Mus musculus with 4 samples.

Results

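De-differentiated fat cells grown out of epididymal white adipose tissue (eWAT_DFAT) were compared with cultured stromal vascular fraction (SVF) cells of that depot (eWAT_SVF), using 1 droplet-based single-cell RNA-seq library of each. The labels call the second culture SVF cells, and the study also calls it ASPCs, for adipose stem and progenitor cells. Per the study's methods, both came from chow-fed C57BL/6J male mice: floating adipocytes were left to attach to the upper surface of a filled vessel for the eWAT_DFAT culture, whereas the pelleted stromal cells were plated directly for the eWAT_SVF culture. The cells were detached with trypsin, sorted for viability with 7-AAD and loaded on the 10x Genomics 3′ v3.1 platform. As models, both are primary cells after growth on plastic rather than cells in tissue, the sources used here do not say whether animals or dishes were pooled, and 1 library a side means that differences between cultures were not measured. A further pair of libraries holds the same 2 cell sources from inguinal fat (iWAT_DFAT and iWAT_SVF).

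Cells were taken as barcodes with 5000 to 75000 UMIs, 200 to 7500 genes and under 10% of UMIs in mitochondrially encoded genes. This rule kept 6464 eWAT_DFAT and 6745 eWAT_SVF cells, 13209 of the 28262 that it kept in all 4 libraries. Median depth was alike, at 27425 and 27617 UMIs per cell, and the kept cells held 185600987 and 197533020 UMIs. At the lower minimum of 500 UMIs that the study's methods give, 6988 and 7353 barcodes passed. The pair of libraries shared 15 cell barcodes. UMIs were summed over the cells of each library and scaled to a library total of 1000000 (CPM). With 1 library a side no test was possible, and every 95% interval given here covers counting error only.

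Fibroblast-like stromal cells of white fat include the progenitors from which new adipocytes form, and they also produce the collagen matrix of the tissue. When such cells are plated, they commonly take on contractile features of myofibroblasts, with stress fibres that carry smooth muscle actin. Mature adipocytes that attach to plastic lose their lipid droplet and also acquire a spindle shape, and the resulting cells can divide and form adipocytes again.

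The labelled cell type was checked against marker genes. UMIs of at least 3 stromal markers were found in 94.8% of eWAT_DFAT and 97.9% of eWAT_SVF cells. These shares cannot tell stromal cells from others, because free RNA also held stromal transcripts. In droplets with too few UMIs to be cells, *Col1a1* was at 742 CPM in eWAT_DFAT and 2224 CPM in eWAT_SVF. In cells it was at 693 and 2226 CPM. *Pdgfra*, the receptor used to identify adipose progenitors, was at 95.2 CPM in eWAT_DFAT and 82.5 CPM in eWAT_SVF; with each cell thinned to 5000 UMIs it had a UMI in 34.0% and 30.3% of cells, against 9.84% and 17.2% of the cells that carried endothelial markers. Before thinning, the median depth of those endothelial marker-carrying cells was 13861 and 26064 UMIs. Of 10 measured stromal markers 7, the collagen genes included, were 2-fold or more lower in eWAT_DFAT, and *Thy1* was at 20.9 and 131 CPM. Cells with UMIs of 3 or more markers of another cell type were counted by type. Leaving out all with endothelial, mesothelial, pericyte, immune or glial markers kept 6024 of 6464 eWAT_DFAT and 5687 of 6745 eWAT_SVF cells. That setting, used below, thus removed more of eWAT_SVF. Mesothelial markers were carried by 67 eWAT_DFAT cells (1.04%) and 544 eWAT_SVF cells (8.07%, with an exact binomial 95% interval from 7.43% to 8.74%), endothelial markers by 2.99% and 3.87%, pericyte markers by 3.16% and 3.97%, and immune markers by 10 and 40 cells. The pericyte markers went both ways. *Rgs5* was at 2.47 and 0.349 CPM, *Abcc9* at 0.636 and 0.121 CPM and *Kcnj8* at 0.269 and 0.0861 CPM. In contrast, *Mcam* was at 6.22 and 17.8 CPM, *Notch3* at 5.67 and 9.15 CPM and *Cspg4* at 2.95 and 4.98 CPM. The median depth of the pericyte marker-carrying cells was 21395.5 and 36220.5 UMIs. Adipocyte markers were carried by 283 eWAT_DFAT cells (4.38%, interval from 3.89% to 4.91%) and 6 eWAT_SVF cells (0.0890%), although the UMIs of *Lep*, which encodes the adipocyte hormone leptin, were 0 in both libraries. Contractile genes listed as smooth muscle markers were carried by 54.8% and 84.5% of cells, and they are treated below as a gene group rather than as a cell type.

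Of 9891 genes with a mean of 5 or more CPM over both libraries, 562 (5.68%) were 2-fold or more higher in eWAT_DFAT and 595 (6.02%) were 2-fold or more lower, so that 11.7% lay past 2-fold in either direction. The median log2 ratio of eWAT_DFAT over eWAT_SVF over all these genes was 0.07. At 4-fold, 168 genes (1.70%) stood on each side. In the following, "higher" and "lower" refer to eWAT_DFAT relative to eWAT_SVF, and counts of list members past 2-fold can be read against these background shares. The shares are for all cells. In settings with part of the cells other members can be measured, and the counts over all genes are given as a range with the processing settings. Genes were named by a rule on their ratio or level, and further list members, chosen as examples after their values were seen, are given beside the counts over all members.

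**Figure D1:**
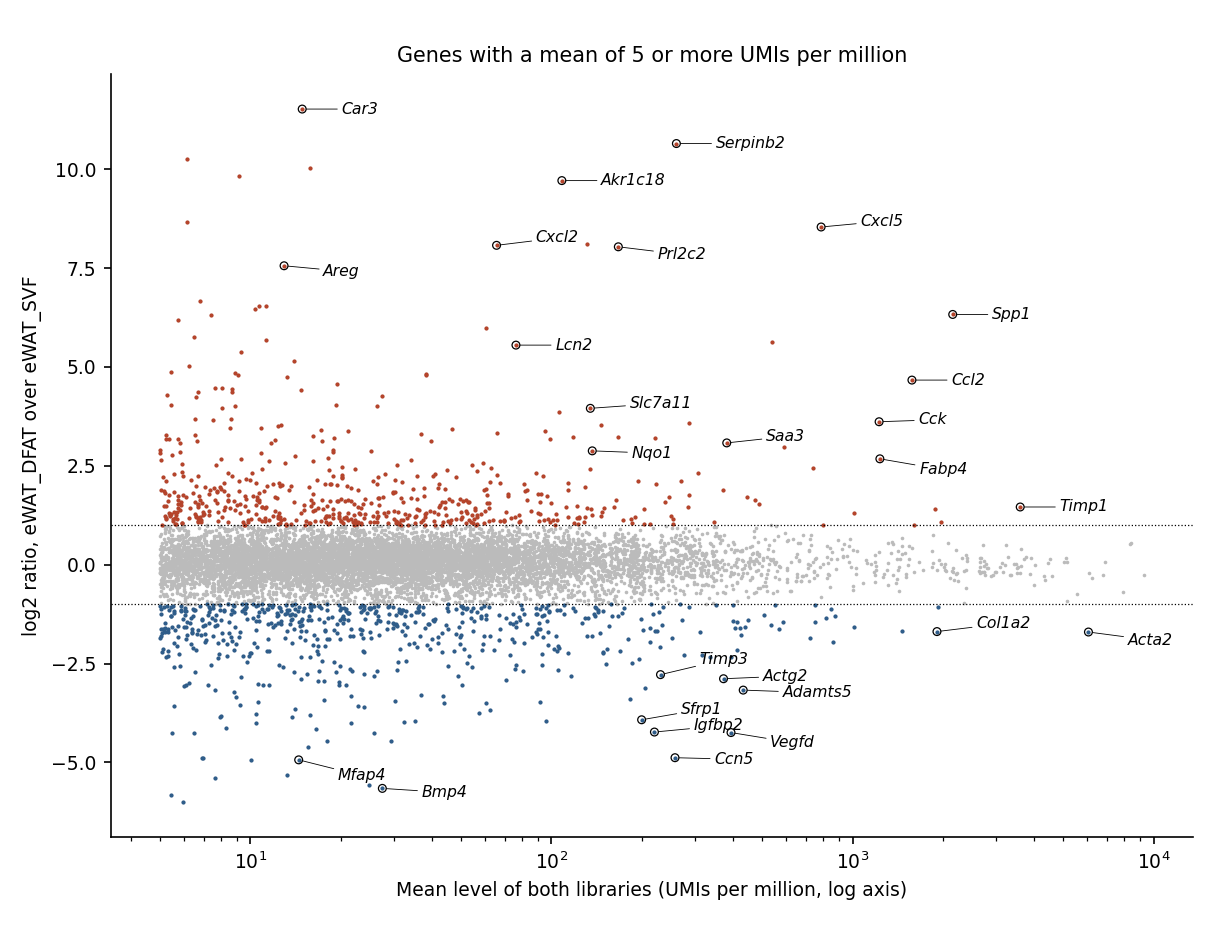
Each point is a gene with a mean of 5 or more CPM; the horizontal axis is the mean CPM of the eWAT_DFAT and eWAT_SVF libraries on a log scale, and the vertical axis is the log2 ratio of eWAT_DFAT over eWAT_SVF. Dotted lines mark 2-fold, red and blue points lie past them, and circled genes are labelled: *Serpinb2*, *Akr1c18* and *Cxcl5* lie far above the cloud, and *Bmp4* and *Ccn5* far below it.

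The 15 genes with the largest ratio toward eWAT_DFAT, among those with a mean of 10 or more CPM, were *Car3*, *Serpinb2*, *Cxcl3*, *Akr1c18*, *Cxcl5*, *Prl2c3*, *Cxcl2*, *Prl2c2*, *Areg*, *Vstm2a*, *Cfd*, *Brinp3*, *Spp1*, *Kcnq5* and *Enpp2*. They include chemokines, proliferins, an EGF family ligand and adipocyte genes, which are taken up by group below. *Serpinb2* (ENSMUSG00000062345, chr1:107511423-107535478, plus strand, GRCm38), which encodes plasminogen activator inhibitor 2, was at 519.7 CPM in eWAT_DFAT and 0.324 CPM in eWAT_SVF. That is 96466 against 64 UMIs, a log2 ratio of 10.65 with a 95% interval from 10.29 to 11.02. In thinned cells a *Serpinb2* UMI was found in 55.3% of eWAT_DFAT and 0.119% of eWAT_SVF cells, and among endothelial marker-carrying cells in 23.3% and 0%.

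*Akr1c18* (ENSMUSG00000021214, chr13:4132615-4150654, minus strand), which encodes the hydroxysteroid dehydrogenase that inactivates progesterone, was at 216 and 0.258 CPM. *Spp1* (ENSMUSG00000029304, chr5:104435118-104441050, plus strand), which encodes the secreted phosphoprotein osteopontin, reached 4251 CPM in eWAT_DFAT against 53.0 CPM, an 80.3-fold difference. *Spp1* UMIs were found in 85.9% and 6.75% of thinned cells, and in 52.8% and 9.96% of the endothelial marker-carrying cells. Those cells also held *Pdgfra* UMIs, as given above, and so are no clean background. Without the cells carrying markers of another type, *Spp1* was at 35.7 CPM in eWAT_SVF. Whether the eWAT_SVF share reflects expression or free RNA was not tested. *Enpp2*, which encodes autotaxin, the enzyme that makes lysophosphatidic acid, was at 22.2 and 0.435 CPM. *Kcnq5*, a potassium channel gene, was at 119.7 and 1.88 CPM. Both *Kcnq5* and *Brinp3* are long genes, and UMIs from introns were counted. Without the cells carrying markers of another type, the log2 ratio moved from 10.65 to 11.41 for *Serpinb2*, from 6.33 to 6.95 for *Spp1* and from 5.99 to 6.99 for *Kcnq5*.

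*Cck*, which encodes cholecystokinin, had 2266 CPM in eWAT_DFAT and 185 CPM in eWAT_SVF, 12.2-fold higher. Among the 8 genes with the largest gain in CPM were also *Timp1*, an inhibitor of matrix metalloproteinases, at 5287 and 1924 CPM, the ferritin heavy chain gene *Fth1* at 9998 and 6878 CPM, and *S100a6* at 9795 and 6862 CPM, of which *Timp1* alone was past 2-fold.

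Chemokines and cytokines had the highest median of the 31 gene lists. Of 23 listed genes 16 were measured, 12 were 2-fold or more higher, 2 were 2-fold or more lower, and the median log2 ratio was 3.10. *Spp1*, described above, belongs to this list. Neutrophil-attracting CXC chemokine genes on chromosome 5 were among its members with the highest ratios. *Cxcl5* (ENSMUSG00000029371, chr5:90759360-90761624, plus strand) was at 1569 CPM in eWAT_DFAT and 4.22 CPM in eWAT_SVF, a log2 ratio of 8.54 with an interval from 8.44 to 8.64. Its neighbours *Cxcl2* and *Cxcl1* had log2 ratios of 8.07 and 5.62. *Cxcl3*, which lies in the same cluster and was not in the list, had 5852 and 6 UMIs, a log2 ratio of 10.02 with an interval from 8.90 to 11.47. Without the cells carrying markers of another type, the log2 ratios were 9.81 for *Cxcl5*, 10.56 for *Cxcl2* and 12.25 for *Cxcl3*, the last on 1 eWAT_SVF UMI. Thinned cells with a *Cxcl5* UMI made up 71.2% of eWAT_DFAT and 1.17% of eWAT_SVF, against 35.2% and 1.53% of the endothelial marker-carrying cells. As for *Spp1*, whether the eWAT_SVF share reflects expression or free RNA was not tested.

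Monocyte attractants were also higher. *Ccl2* (ENSMUSG00000035385, chr11:82035571-82037453, plus strand) was at 3031 and 119 CPM, its neighbour *Ccl7* at 1049 and 134 CPM, and *Ccl11*, which attracts eosinophils, at 29.2 and 3.07 CPM. UMIs of *Ccl2* were present in 93.5% of thinned eWAT_DFAT and 24.3% of thinned eWAT_SVF cells, and in 66.8% and 42.5% of those with endothelial markers. The part of free RNA in these shares was not tested. Without the cells carrying markers of another type, *Ccl2* was at 2977 CPM in eWAT_DFAT and 90.8 CPM in eWAT_SVF. Cytokines of the IL-6 family were higher as well, with *Il11* at 49.5 and 3.07 CPM, *Lif* at 32.98 and 4.55 CPM and *Il6* at 109.9 and 33.2 CPM. *Ptgs2*, which encodes the inducible cyclooxygenase of prostaglandin synthesis, was 9.43-fold higher. The 2 lower members were *Cxcl12*, the ligand of CXCR4, at 147 and 477 CPM, and *Ccl9* at 7.07 and 45.8 CPM. *Csf1*, the macrophage growth factor, lay within 2-fold, at 1103 and 772 CPM.

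NF-κB is a family of dimeric transcription factors held in the cytoplasm by inhibitor proteins until a signal releases them, and many of its targets encode chemokines as well as its own inhibitors. Of 20 listed pathway genes 19 were measured, 9 were 2-fold or more higher, 0 were 2-fold or more lower, and the median log2 ratio was 0.99. The feedback inhibitors led. *Nfkbia*, which encodes IκBα, was at 226 and 42.5 CPM, and *Tnfaip3*, which encodes the deubiquitinase A20, at 16.0 and 1.25 CPM. *Sod2*, a mitochondrial superoxide dismutase, was at 441 and 131 CPM. Among the subunits, *Nfkb1* was 2.96-fold and *Rel* 2.14-fold higher, *Relb* lay just inside 2-fold at a log2 ratio of 0.99, and *Rela* was at 32.2 and 35.2 CPM.

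The upstream regions of *Cxcl2*, *Cxcl1* and *Nfkbia* are shown because these genes stood high in both groups and a κB-type match lies close to each start; *Cxcl1* was added after its values were seen. Each line gives the 150 bases before the RefSeq start on the gene's own strand (GRCm38.p6), at chr5:90903749-90903898 (plus strand), chr5:90891095-90891244 (plus strand) and chr12:55492648-55492797 (minus strand). Capitals mark matches to GGGA, then 4 bases of any kind, then CC, the core of the κB site, on either strand and with overlapping matches joined.
Cxcl2: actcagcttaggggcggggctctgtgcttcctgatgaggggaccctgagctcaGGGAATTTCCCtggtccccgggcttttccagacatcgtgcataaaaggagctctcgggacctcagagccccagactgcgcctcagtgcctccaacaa
Cxcl1: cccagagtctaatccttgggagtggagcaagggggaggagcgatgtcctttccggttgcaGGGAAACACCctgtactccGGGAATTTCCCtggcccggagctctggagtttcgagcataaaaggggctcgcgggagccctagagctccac
Nfkbia: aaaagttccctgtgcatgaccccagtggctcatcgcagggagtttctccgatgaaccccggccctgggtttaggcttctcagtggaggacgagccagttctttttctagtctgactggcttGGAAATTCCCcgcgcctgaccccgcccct

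The joined match GGGAATTTCCC began 97 bases before the start of *Cxcl2* and 71 bases before that of *Cxcl1*, which had a further match, GGGAAACACC, at 90 bases. In *Nfkbia* the match GGAAATTCCC began 29 bases before the start. Over windows from 250 bases before to 50 after a start, this motif was found in 20.7% of all 32851 windows, in 12 of 20 windows (60%) of 16 NF-κB pathway genes, in 7 of 19 windows (36.8%) of 16 chemokine and cytokine genes, and in 5 of 12 windows (41.7%) of the acute phase and complement genes. A match describes the letters of a window and not a bound site.

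Acute phase and complement genes were mixed. Of 18 listed genes 17 were in the files and 11 were measured, 5 were 2-fold or more higher and 1 was 2-fold or more lower, with a median log2 ratio of 0.65; in cells low in cell cycle genes 8 of 14 measured were higher. *Lcn2*, which encodes the iron-sequestering protein lipocalin 2, was at 149 and 3.18 CPM, and its log2 ratio of 5.55 became 6.46 without the cells carrying markers of another type. *Saa3* (ENSMUSG00000040026, chr7:46711998-46715700, minus strand), the serum amyloid A gene of extrahepatic tissue, was at 683 and 80.9 CPM. However, 94.8% of the eWAT_SVF *Saa3* UMIs came from mesothelial marker-carrying cells, and with all cells that carried markers of another cell type left out of both libraries it was at 624 and 4.66 CPM, which moved the log2 ratio from 3.08 to 7.07. Within eWAT_DFAT, 91.98% of *Saa3* UMIs lay in the 10% of cells with most of them. *Hp*, which encodes haptoglobin, was at 357 and 119.9 CPM, and its log2 ratio was 1.57 over all cells and 0.69 without the adipocyte marker-carrying cells, which held 49.0% of its eWAT_DFAT UMIs. The complement component *C3* was at 87.1 and 91.97 CPM.

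Interferon response genes did not follow the chemokines. Of 26 listed genes 24 were in the files and 16 were measured, 1 was 2-fold or more higher and 6 were 2-fold or more lower, and the median log2 ratio was -0.76. *Isg15*, which encodes a ubiquitin-like modifier, was at 17.0 and 67.2 CPM and *Ifit1*, a sensor of viral RNA, at 2.79 and 13.9 CPM. The exception was *Ifi207*, at 14.9 and 3.45 CPM. MHC class I genes lay near the background, with 0 of 11 measured members past 2-fold in either direction.

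The upstream regions of *Isg15* and *Ifit1* are shown for comparison with those of the chemokines, as the lower members with the largest ratios. They are again the 150 bases before the start, at chr4:156200819-156200968 (minus strand) and chr19:34640739-34640888 (plus strand), with capitals for joined matches on either strand to GAAA, then 2 bases of any kind, then GAAA, the core of the interferon-stimulated response element.
Isg15: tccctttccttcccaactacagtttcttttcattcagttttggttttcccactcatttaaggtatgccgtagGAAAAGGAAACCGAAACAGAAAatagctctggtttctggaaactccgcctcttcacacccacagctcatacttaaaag
Ifit1: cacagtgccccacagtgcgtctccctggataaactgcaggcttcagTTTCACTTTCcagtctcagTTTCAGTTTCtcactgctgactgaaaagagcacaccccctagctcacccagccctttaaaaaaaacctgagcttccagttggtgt

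In *Isg15* the overlapping matches formed a stretch of 22 bases that began 78 bases before the start, and in *Ifit1* the reverse-strand matches began 104 and 85 bases before it. Over the longer windows this motif was found in 11 of 21 (52.4%) for 18 interferon response genes and in 3.44% of all windows.

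Secreted growth factors and proliferins were also a group with a high median. Of 20 listed genes 18 were measured, 12 were 2-fold or more higher and 2 were 2-fold or more lower, with a median log2 ratio of 1.87. Proliferins are placental hormones of the prolactin family. *Prl2c2* was at 332 and 1.27 CPM and *Prl2c3* at 261 and 0.947 CPM, while *Prl2c5* had 12.3 CPM in eWAT_DFAT and 2 UMIs in eWAT_SVF, a log2 ratio of 10.24 with an interval from 8.39 to 13.29. These near-identical genes lie together on chromosome 13, and the split of UMIs between them is uncertain. Without the adipocyte marker-carrying cells *Prl2c5* was at 6.64 CPM in eWAT_DFAT, a log2 ratio of 9.36.

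Ligands of the EGF receptor were higher, with *Areg*, which encodes amphiregulin, at 25.7 and 0.137 CPM, and *Ereg*, which encodes epiregulin, at 174 and 16.8 CPM. Mesenchymal factors that act on epithelia were also past 2-fold: *Hgf* was 5.96-fold, *Fgf10* 5.52-fold and *Fgf7* 4.10-fold higher. *Grem1*, a secreted antagonist of BMPs, was at 44.3 and 6.05 CPM. In contrast, *Bmp4* (ENSMUSG00000021835, chr14:46383520-46390669, minus strand), a BMP that commits mesenchymal cells to the adipocyte lineage, had the largest ratio toward eWAT_SVF among genes with a mean of 10 or more CPM, at 1.07 and 53.8 CPM and a log2 ratio of -5.66, or -6.44 without the cells carrying markers of another type.

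*Vegfd* (ENSMUSG00000031380, chrX:164373378-164402650, plus strand), a ligand of the lymphatic VEGF receptor, was at 39.6 and 750.2 CPM, with UMIs in 15.6% of thinned eWAT_DFAT and 82.7% of thinned eWAT_SVF cells, against 2.07% and 49.0% of those with endothelial markers. Immediate early and AP-1 genes had 6 of 20 members 2-fold or more higher and 1 lower, with a median log2 ratio of 0.23. *Fosl1*, an AP-1 subunit, was 5.94-fold higher and *Dusp4*, a phosphatase that dampens MAP kinases, 4.65-fold higher, whereas *Fos* was 3.50-fold lower.

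Genes of the NRF2 antioxidant response, which supply glutathione and thioredoxin, were largely higher. Of 19 measured members 11 were 2-fold or more higher and 4 were 2-fold or more lower, with a median log2 ratio of 1.27. *Slc7a11*, the cystine importer, was at 253 and 16.3 CPM, *Nqo1*, a quinone reductase, at 241 and 32.7 CPM, and *Txnrd1*, thioredoxin reductase, at 1254 and 229 CPM. Both subunits of the rate-limiting enzyme of glutathione synthesis stood higher, *Gclc* by 3.35-fold and *Gclm* by 3.29-fold, and *Hmox1*, the heme-degrading oxygenase, by 3.09-fold. The lower members included *Gpx3*, an extracellular glutathione peroxidase, at 37.6 and 171 CPM and the glutathione transferase *Gstm1* at 90.8 and 206 CPM.

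Targets of ATF4, the transcription factor of amino acid shortage, were at the other side. Of 20 measured members 0 were 2-fold or more higher and 6 were 2-fold or more lower, with a median log2 ratio of -0.47. *Trib3*, a pseudokinase, was at 3.87 and 29.6 CPM, *Asns*, asparagine synthetase, at 79.0 and 232 CPM, and *Phgdh*, the entry enzyme of serine synthesis, at 106 and 336 CPM. The chaperones *Hspa5* and *Calr* of the endoplasmic reticulum, included in the same list, had log2 ratios of 0.07 and 0.11.

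**Figure D2:**
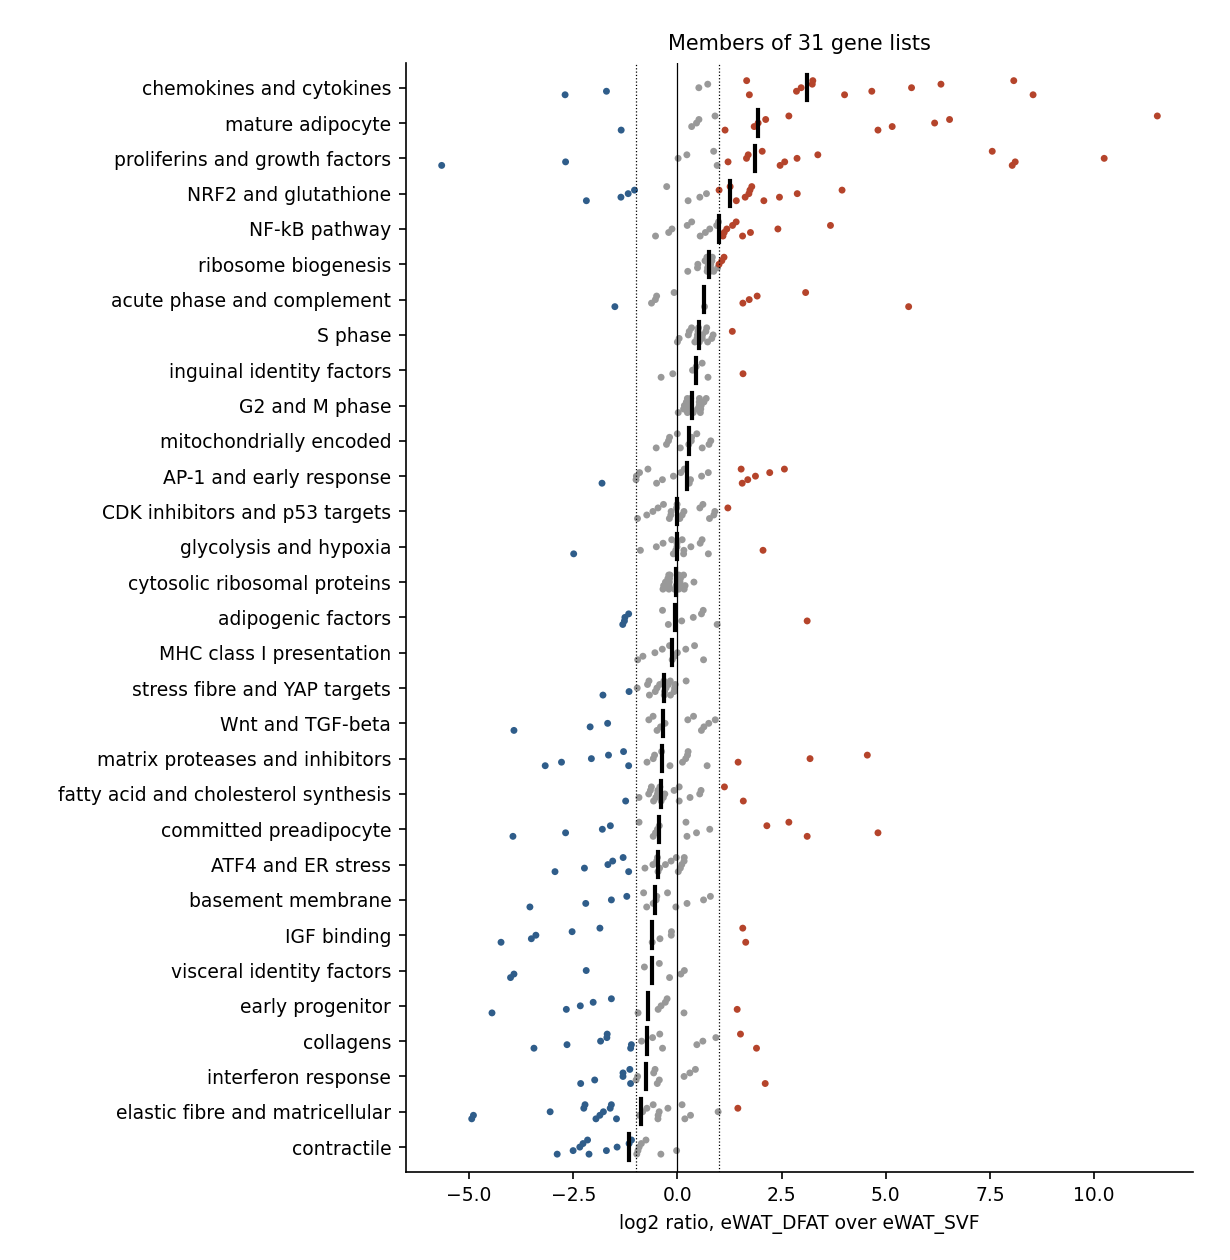
Each dot is a measured member of one of the 31 gene lists, and the horizontal axis is its log2 ratio of eWAT_DFAT over eWAT_SVF; the black bar is the median of the list and dotted lines mark 2-fold. The lists are ordered by their median, from chemokines and cytokines at 3.10 to contractile genes at -1.16.

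Contractile genes had the lowest median of the 31 lists. Of 20 listed genes 17 were measured, 0 were 2-fold or more higher and 10 were 2-fold or more lower, and the median log2 ratio was -1.16. *Acta2* (ENSMUSG00000035783, chr19:34241090-34255590, minus strand), which encodes smooth muscle α-actin, was at 2856 CPM in eWAT_DFAT and 9297 CPM in eWAT_SVF. *Actg2* (ENSMUSG00000059430, chr6:83512905-83536265, minus strand), the γ-actin of visceral smooth muscle, was at 89.0 and 657 CPM, with UMIs in 19.6% and 47.7% of thinned cells and in 12.4% and 32.95% of those with endothelial markers. Calponin (*Cnn1*) was 5.07-fold, smooth muscle myosin (*Myh11*) 4.35-fold, myosin light chain kinase (*Mylk*) 4.46-fold and the intermediate filament gene *Des* 5.66-fold lower.

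Not all actin-associated genes shared this difference. *Tagln*, which encodes the actin-bundling protein SM22α, lay inside 2-fold at 3571 and 6744 CPM, and *Cald1*, caldesmon, was at 3198 and 3239 CPM. Among stress fibre and YAP target genes, 0 of 20 were 2-fold or more higher and 2 were lower, and the YAP targets *Ankrd1* and *Ccn2* had log2 ratios of -0.17 and -0.32. Without the cells that carried markers of another type, 11 contractile genes were 2-fold or more lower and the median was -1.41. The CArG box, the site of serum response factor, was found in 1 of 16 promoter windows (6.25%) of 15 contractile genes and in 1.63% of all windows. *Actg2*, *Myh11* and *Tagln* were among the genes without a window, so this share does not cover them.

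Matrix genes stood lower in several lists. Of 16 collagen genes 2 were 2-fold or more higher and 7 were 2-fold or more lower, with a median log2 ratio of -0.73; in cells low in cell cycle genes 5 were higher and 8 lower. The fibrillar collagen genes *Col1a1* at 693 and 2226 CPM, *Col1a2* at 902 and 2914 CPM and *Col3a1* at 315 and 1130.0 CPM were each between 3.21-fold and 3.59-fold lower, and *Col14a1*, a fibril-associated collagen, was 10.9-fold lower. The 2 higher members were *Col5a3* at 36.01 and 9.65 CPM and *Col15a1* at 62.9 and 22.03 CPM.

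Of 24 genes of elastic fibres and matricellular proteins 1 was 2-fold or more higher and 11 were 2-fold or more lower, with a median log2 ratio of -0.87. *Eln*, which encodes elastin, was at 0.453 and 13.5 CPM; mesothelial marker-carrying cells held 46.7% of its eWAT_SVF UMIs, and its log2 ratio was -4.89 with and -4.05 without the cells carrying markers of another type. *Mfap4*, a microfibril-associated protein, was at 0.916 and 28.03 CPM, *Lox*, the enzyme that cross-links collagen and elastin, at 352 and 1365 CPM, and *Postn*, periostin, at 52.5 and 244 CPM. *Tnc*, which encodes the matricellular protein tenascin C, was the higher member, at 415 and 152 CPM. *Ccn5* (ENSMUSG00000027656, chr2:163820861-163833146, plus strand), a CCN family protein, was at 16.9 and 498 CPM, and its UMIs were found in 5.65% and 68.0% of thinned cells, against 1.55% and 26.8% of those with endothelial markers. Of 14 measured basement membrane genes 4 were 2-fold or more lower and 0 higher, among them the laminin chain *Lama5* at 1.47 and 17.0 CPM.

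Matrix proteases and their inhibitors split in both directions, with 3 of 19 measured genes 2-fold or more higher and 6 lower. The stromelysins *Mmp3* at 179 and 19.7 CPM and *Mmp10* at 37.1 and 1.57 CPM were higher together with *Timp1*. *Timp3*, an inhibitor bound to the matrix, was at 58.5 and 402 CPM, *Timp2* at 507 and 1240.5 CPM, and the aggrecanase *Adamts5* at 86.6 and 780.3 CPM.

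The secreted proteins that bind insulin-like growth factors stood mostly lower. Of 11 measured members of this list 2 were 2-fold or more higher and 5 were 2-fold or more lower, with a median log2 ratio of -0.60, or -2.19 over the members with a mean of 20 or more CPM. *Igfbp2* was at 22.2 and 417 CPM, *Igfbp4* at 31.6 and 333 CPM, and *Pappa*, a protease that cleaves IGFBP4, at 7.096 and 80.5 CPM. *Igfbp7* was at 1235 and 1363 CPM. *Igf1* itself was at 21.7 and 139 CPM. Of 14 measured Wnt and TGF-β pathway genes 3 were 2-fold or more lower and 0 higher, and *Sfrp1*, a secreted Wnt inhibitor also listed with the visceral depot genes, was at 24.7 and 374 CPM.

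Among the other genes with the largest ratios toward eWAT_SVF, *Fbxl22*, an F-box gene, was at 1.02 and 48.4 CPM, *Lama1*, a laminin chain, at 1.21 and 29.8 CPM, *Tbxa2r*, the thromboxane receptor, at 2.56 and 49.0 CPM, and *Itga11*, the α-chain of a collagen-binding integrin, at 3.86 and 60.9 CPM. *Fxyd6*, *Map3k7cl* and *Limch1* had log2 ratios of -5.33, -4.45 and -4.45, the last at -5.18 without the cells carrying markers of another type. *Gpm6a* and *Upk3b* are mesothelial markers, and mesothelial marker-carrying cells held 97.03% and 89.5% of their eWAT_SVF UMIs, shares that the choice of these cells by the same genes partly fixes; without the cells carrying markers of another type, the log2 ratio of *Gpm6a* was -2.57 in place of -4.94 and that of *Upk3b* was -4.89 in place of -4.00. All 9 measured mesothelial markers were lower, the summed level of all 10 listed was 15.9 and 160 CPM, and *Msln*, the mesothelin gene, was at 0.183 and 11.8 CPM. *Lyz2*, a lysozyme gene of myeloid cells, was at 2.54 and 40.6 CPM in cells and at 51.4 and 57.2 CPM in the droplets with 1 to 100 UMIs, while *Ptprc*, which marks leukocytes, was at 0.0808 and 0.486 CPM in cells. Without the cells carrying markers of another type *Lyz2* was at 1.03 and 8.19 CPM, a log2 ratio of -2.99 in place of -4.00.

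Early progenitor genes stood mostly lower. Of 12 measured genes 1 was 2-fold or more higher, 5 were 2-fold or more lower, and 10 had a negative log2 ratio. The median was -0.70, or -0.48 without the cells carrying markers of another type. *Cd248*, an endosialin gene of perivascular fibroblasts, was at 28.7 and 182 CPM and *Ly6a*, which encodes the progenitor antigen SCA1, at 38.6 and 157 CPM. *Dpp4*, the marker of interstitial progenitors, was at 3.01 and 9.03 CPM, and *Sfrp2* was at 7.28 and 23.2 CPM. Mesothelial marker-carrying cells held 59.6% and 70.4% of the eWAT_SVF UMIs of *Dpp4* and *Sfrp2*, and without the cells carrying markers of another type their log2 ratios were -0.48 and -0.07. *Bmp7*, which the study also names, had 4 and 6 UMIs, too few for a comparison.

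Committed preadipocyte genes were divided, with 4 of 17 measured members 2-fold or more higher and 4 lower. *Pparg* (ENSMUSG00000000440, chr6:115360951-115490399, plus strand), the nuclear receptor required for adipocyte formation, was at 71.1 and 8.21 CPM. Adipocyte marker-carrying cells held 22.5% of its eWAT_DFAT UMIs, and its log2 ratio was 3.12 with and 2.84 without them. *Cd36*, a fatty acid transporter, was at 74.2 and 2.64 CPM, and its log2 ratio of 4.81 became 7.56 without the cells carrying markers of another type. *Gas6*, a ligand of the TAM receptors, was at 11.7 and 180.4 CPM. Of 12 measured adipogenic factors 1, *Pparg*, was 2-fold or more higher and 4 were 2-fold or more lower, with a median log2 ratio of -0.06. In cells low in cell cycle genes, 25.8% of eWAT_DFAT and 44.8% of eWAT_SVF, 4 of 15 were higher and 3 lower, with a median of 0.16. *Cebpa* and *Cebpb* lay within 2-fold, at log2 ratios of 0.62 and 0.38, whereas *Cebpd* was at 95.5 and 237 CPM and *Klf4* at 39.1 and 94.4 CPM.

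Mature adipocyte genes were higher in 10 of 15 measured cases and lower in 1, with a median log2 ratio of 1.94. *Car3*, carbonic anhydrase 3, had 5516 UMIs in eWAT_DFAT and 2 in eWAT_SVF, a log2 ratio of 11.52 with an interval from 9.67 to 14.57. *Adipoq*, which encodes adiponectin, was at 11.3 and 0.157 CPM, *Plin1*, which coats lipid droplets, at 27.3 and 0.764 CPM and *Cfd*, which encodes adipsin, at 21.1 and 0.228 CPM. *Fabp4*, the fatty acid-binding protein of adipocytes, was at 2132 and 334 CPM, while *Fabp5* was 2.55-fold lower.

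The 283 cells with UMIs of 3 or more adipocyte markers held 94.3% of the *Car3*, 98.6% of the *Cfd*, 96.1% of the *Adipoq*, 64.0% of the *Plin1* and 44.7% of the *Fabp4* UMIs of their library. Of these genes *Fabp4* alone was not among the markers that chose the cells, so that the other shares are partly fixed by the choice. Without such cells in either library, a setting chosen after the data were seen and based on genes of the list itself, 10 genes remained measured, 5 were 2-fold or more higher and the median was 0.89. In cells low in cell cycle genes, 15 of 18 measured genes were 2-fold or more higher. Without adipocyte marker-carrying cells log2 ratios were 7.44 for *Car3*, 5.51 for *Adipoq*, 4.29 for *Plin1* and 1.93 for *Fabp4*. The first 2 rest on low levels in that setting. *Car3* was at 1.76 and 0.0101 CPM and *Adipoq* at 0.461 and 0.0101 CPM, each with 2 eWAT_SVF UMIs. *Fabp4* was at 1230 and 323 CPM. Of 21 genes of fatty acid and cholesterol synthesis 2 were 2-fold or more higher and 1 lower; the desaturase *Scd1*, at 138 and 46.0 CPM, had a log2 ratio of 1.58 with and 0.32 without the adipocyte marker-carrying cells.

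Among depot identity genes, 3 of 8 measured visceral genes were 2-fold or more lower, with a median log2 ratio of -0.61. They were *Sfrp1*, the mesothelial marker *Upk3b* and *Tcf21*, a transcription factor of visceral mesenchyme, which was at 4.16 and 19.0 CPM. Without the cells carrying markers of another type, 2 of 7 measured genes were lower and the median was -0.09. *Wt1*, which marks cells of the visceral depots, was at 20.1 and 34.8 CPM. Of 7 measured inguinal genes 1, the homeobox gene *En1*, was 2-fold or more higher, at 16.0 and 5.36 CPM.

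Few proliferation genes were past 2-fold. Of 19 measured S phase genes 1, *Rrm2*, which encodes a subunit of ribonucleotide reductase, was 2-fold or more higher, at 101 and 40.5 CPM, and 0 of 20 G2/M genes were past 2-fold in either direction. Their medians were 0.51 and 0.35, and all 19 S phase and all 20 G2/M genes had a positive log2 ratio. Per thinned cell the medians were 4 UMIs in eWAT_DFAT and 2 in eWAT_SVF for S phase genes. For G2/M genes they were 3 and 1 UMIs. *Top2a*, a topoisomerase of dividing cells, was at 122 and 97.8 CPM, and the histone genes *Hist1h1b* and *Hist1h2ap* had log2 ratios of 0.29 and -0.86. Histone transcripts belong to a family of near-identical copies, so these values are uncertain. Cells with at most 2 UMIs of S phase and G2/M genes after thinning made up 25.8% of eWAT_DFAT and 44.8% of eWAT_SVF. *Ccnd1*, cyclin D1, was at 105 and 45.5 CPM.

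Of 20 ribosome biogenesis genes 3 were 2-fold or more higher, with a median log2 ratio of 0.77: *Ncl*, nucleolin, at the limit with 1066 and 533 CPM, *Dkc1* at 87.8 and 40.4 CPM and *Nolc1* at 134 and 63.8 CPM. The log2 ratio of *Ncl* was 1.0006. With the median of ratios set to 0, *Ncl* and *Nolc1* came just inside 2-fold, and in cells low in cell cycle genes they did so at 0.79 and 0.86, which left 1 of 20 genes past 2-fold. Of 23 measured ribosomal protein genes 0 were past 2-fold, with a median of -0.03. Glycolysis and hypoxia genes had 1 member past 2-fold on each side among 17 and a median of -0.01. Of 13 mitochondrially encoded genes 0 were past 2-fold and the median was 0.27, while their summed level was lower, at 20301 and 22281 CPM. In cells low in cell cycle genes 1 was 2-fold or more higher and the median was 0.46.

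Differences in the summed level of a list could come from most cells or from few, and the spread over cells was therefore described in cells thinned to 5000 UMIs. Chemokine and cytokine genes had a median of 55 UMIs per eWAT_DFAT cell and 8 per eWAT_SVF cell, and 89.99% of eWAT_DFAT cells lay above the 90th percentile of eWAT_SVF. This sum includes *Spp1*, *Ccl2* and *Cxcl5*, whose UMIs were also found in endothelial marker-carrying cells of eWAT_DFAT, and the part of free RNA in it was not tested. NF-κB pathway genes had medians of 8 and 3 UMIs, with 60.2% of eWAT_DFAT cells above that percentile, and proliferins and growth factors medians of 10 and 4 UMIs, with 59.8% above it.

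Collagen genes had medians of 13 and 40 UMIs, and 63.0% of eWAT_DFAT cells lay below the 10th percentile of eWAT_SVF. For contractile genes the medians were 59 and 121 UMIs, yet only 26.5% of eWAT_DFAT cells lay below that percentile and 0.433% above the 90th, so that few eWAT_DFAT cells reached the upper range of eWAT_SVF while much of the lower range was shared. Acute phase and mature adipocyte genes behaved otherwise. Acute phase genes had a median of 1 UMI in both libraries, with 90th percentiles of 19 and 6 UMIs, and mature adipocyte genes a median of 8 UMIs in both, with 90th percentiles of 35 and 19 UMIs. In the sums of both lists the libraries thus parted at the upper end of the cells. The mature adipocyte sum, at 3651 and 1947 CPM over all cells, mixes directions, so its shared median does not mean equal levels of its genes. It includes *Fabp4*, which was higher, and *Fabp5*, which was lower. Without the adipocyte marker-carrying cells *Fabp5* was at 421 CPM in eWAT_DFAT and 1172 CPM in eWAT_SVF.

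**Figure D3:**
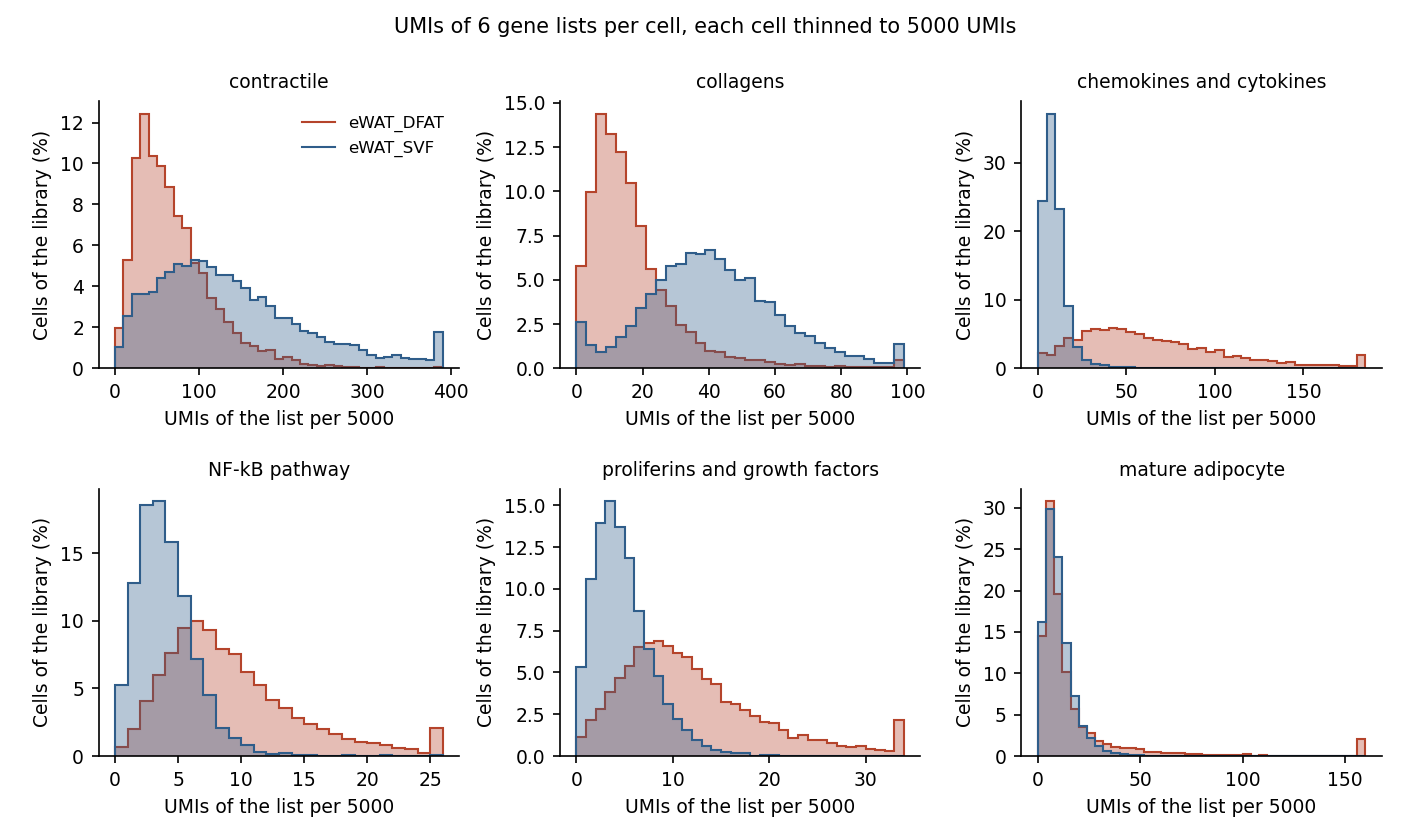
Each panel shows 1 gene list, with the UMIs of the list per cell after thinning to 5000 UMIs on the horizontal axis and the percent of the cells of a library on the vertical axis; red is eWAT_DFAT (6464 cells) and blue is eWAT_SVF (6745 cells), and the last bar holds all cells above it. The chemokine distributions are largely apart (medians 55 and 8), the contractile distributions overlap, and the mature adipocyte distributions share their median of 8. The mature adipocyte sum includes *Fabp5*, which was lower in eWAT_DFAT, beside genes that were higher.

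Within a library, cells are not replicates and share their preparation, so relations between lists are given as a description across cells. Contractile and collagen sums had a Spearman correlation of 0.308 over the 6464 eWAT_DFAT cells and -0.0893 over the 6745 eWAT_SVF cells. Chemokine sums correlated with growth factor sums at 0.337 and 0.163, and with NRF2 sums at 0.273 and 0.0204, whereas their correlation with contractile sums was -0.197 and -0.0978. The NRF2 sum, at 23755 and 17855 CPM over all cells, is mostly ferritin. Without adipocyte marker-carrying cells *Fth1* was at 9920 and 6872 CPM and *Ftl1* at 6209 and 7377 CPM.

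The inguinal pair shares no library with the epididymal pair, and the same ratios were set side by side. The header of the iWAT_SVF library names Cell Ranger version 4, whereas those of the other 3 name 7.1.0, and the part of this difference in the inguinal ratios was not tested. It is not known here whether iWAT_SVF was counted with introns like the others, which bears on every inguinal ratio given below and most on long genes. Of 10063 measured genes in the inguinal pair, 922 (9.16%) were 2-fold or more higher in iWAT_DFAT and 464 (4.61%) were lower. Among 9641 genes measured in both pairs, 512 were 2-fold or more higher in eWAT_DFAT; 300 of them (58.6%, and 37.7% of the 796 in iWAT) were so in iWAT_DFAT, and 7 were 2-fold or more the other way. Of 519 lower genes 220 (42.4%, and 53.4% of the 412 in iWAT) were also lower there, and 41 were the other way. The log2 ratios of the pairs had a Pearson correlation of 0.594 and a Spearman correlation of 0.434 across genes, which are not independent replicates.

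All 15 genes with the largest ratios toward eWAT_DFAT also had higher levels in iWAT_DFAT than in iWAT_SVF, with log2 ratios from 3.42 to 10.79, although *Car3*, *Areg* and *Cfd* had an inguinal mean below 5 CPM. *Serpinb2* was at 497 and 0.281 CPM in iWAT_DFAT and iWAT_SVF, *Akr1c18* at 139 and 0.296 CPM, *Cxcl2* at 117 and 0.502 CPM, and *Cxcl5* at 3347 and 24.7 CPM. Chemokines and cytokines had in the inguinal pair a median log2 ratio of 3.42, beside 3.10 in the epididymal pair, and NF-κB pathway genes 1.98 beside 0.99. Each list median is over the members measured in that pair, so the members can differ. For interferon response genes these were 16 in the epididymal and 18 in the inguinal pair, and for early progenitor genes 12 and 14. Differences between the depots were not tested, since each rests on 1 library a side.

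Larger inguinal ratios were found for contractile genes, with a median of -3.80 beside -1.16. *Acta2* was at 394 CPM in iWAT_DFAT and 2856 CPM in eWAT_DFAT, while the SVF cultures had 8763 and 9297 CPM. Likewise *Tagln* was at 277 and 3571 CPM in the DFAT libraries and at 4241 and 6744 CPM in the SVF libraries. *Des* instead differed more between the SVF libraries, with 4.21 CPM in iWAT_SVF and 259 CPM in eWAT_SVF against 2.47 and 45.7 CPM in the DFAT libraries. Acute phase genes had an inguinal median of 4.22 beside 0.65, with *Saa3* at 3115 and 0.431 CPM. Conversely, collagens had a median of -0.13 beside -0.73, and *Col3a1* was at 1147 and 1089 CPM in the inguinal pair.

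Several genes stood in opposite directions. Interferon response genes had a median of 1.42 in the inguinal and -0.76 in the epididymal pair, and early progenitor genes 1.19 and -0.70. *Grem1* was 7.32-fold higher in eWAT_DFAT but had 1.63 CPM in iWAT_DFAT and 20.7 CPM in iWAT_SVF. *Igfbp3* had 178 and 30.9 CPM, *Fos* 493 and 114 CPM and *Cxcl12* 583 and 169 CPM in the inguinal pair, all opposite to their epididymal ratios. *Vegfd*, 19.0-fold lower in eWAT_DFAT, was at 261 and 154 CPM there.

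**Figure D4:**
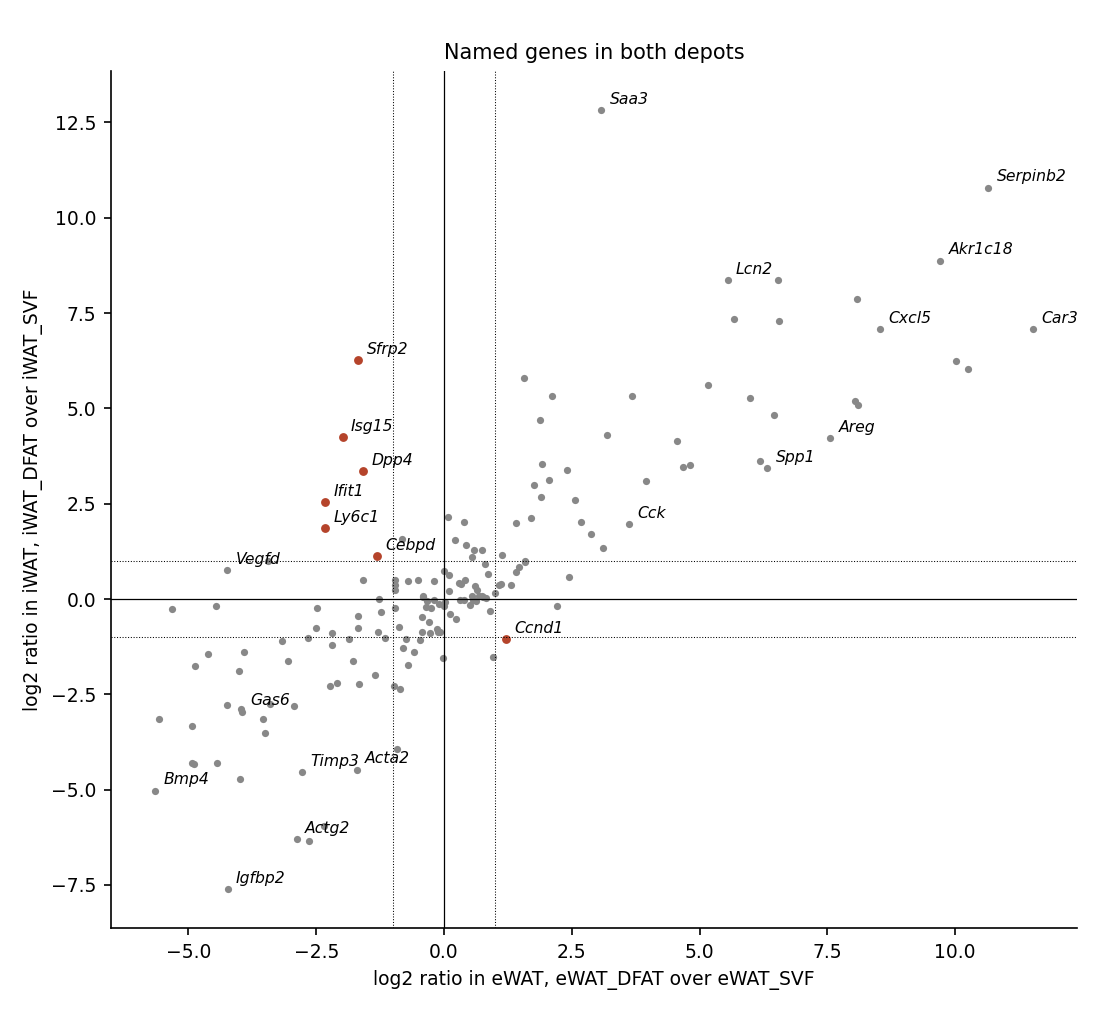
Each point is one of 172 genes that were named by rule other than as cell type markers, had a mean of 5 or more CPM in the epididymal pair and had UMIs in all libraries, so that the remaining genes in the text are not drawn; the horizontal axis is the log2 ratio of DFAT over SVF cells in the epididymal pair and the vertical axis that in the inguinal pair, with 1 library a side in each. Most points lie in the lower left and upper right, and 7 of these genes, drawn in red, stand 2-fold or more in opposite directions, among them *Isg15* (-1.98 and 4.25) and *Ccnd1* (1.21 and -1.05).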

How the data were processed

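Droplet-based single-cell RNA-seq libraries of cultured eWAT_DFAT and eWAT_SVF cells, 1 each, were analysed, with the inguinal pair beside them. Sources were matrices of UMI counts per gene and barcode, which the authors deposited before any cell call, background removal or normalization. The submitters' processing notes name Cell Ranger 7.0.0 and mm10, the file headers name version 7.1.0 for 3 libraries and 4 for iWAT_SVF, and the study's methods describe counting with introns. The later steps of the study (background removal, doublet calls, integration) were not repeated, and no doublet caller was run. With reads from introns included, long genes gain UMIs.

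Barcodes were filtered as given above and UMIs were summed per library over 32285 genes. Ratios were computed from CPM, with exact conditional binomial 95% intervals for ratios, and a count of 0 allowed up to 0.0162 CPM (3 counts) in eWAT_DFAT and 0.0152 CPM in eWAT_SVF. A gene was measured at a mean of 5 or more CPM. Shares of cells with a UMI were taken after random thinning to 5000 UMIs per cell. A cell carried a cell type when it had UMIs of 3 or more of its markers, and cells carrying markers of another type were those with endothelial, mesothelial, pericyte, immune or glial markers. Coordinates are those of GENCODE M21 (GRCm38), and promoter windows are from RefSeq (GRCm38.p6); of the list genes searched for motifs, 15 of 20 contractile genes, 42 of 61 acute phase, chemokine and NF-κB genes and 18 of 26 interferon genes had a window. Windows on chromosome 18 were left out. The strand of the printed windows was checked against the transcripts. The ratio computation was tested on simulated data with known ratios.

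The comparison, its members and the gene lists were chosen with earlier results of these data known. Genes were named by rule: the 15 of largest ratio on either side at a mean of 10 or more CPM, leaving out mitochondrial, unnamed and pseudogene symbols; the 8 with the largest difference in CPM in each direction; per list the 3 with the largest ratio and the 2 with the highest level; genes that the study names for these libraries; and cell type markers. Named outside the rule, after their values were seen, were *Ankrd1*, *Asns*, *C3*, *Cald1*, *Ccl11*, *Ccl7*, *Ccl9*, *Ccn2*, *Cebpa*, *Col15a1*, *Csf1*, *Cxcl1*, *Cxcl12*, *Ereg*, *Fgf10*, *Fgf7*, *Fos*, *Gclc*, *Gclm*, *Gpx3*, *Grem1*, *Gstm1*, *Hgf*, *Hmox1*, *Hspa5*, *Igf1*, *Igfbp3*, *Il11*, *Il6*, *Lif*, *Lox*, *Mylk*, *Nfkb1*, *Postn*, *Ptgs2*, *Rel*, *Rela*, *Relb*, *Tnc* and *Wt1*. Alternatives changed the cell filters, depth, scaling, level minimum, fold and composition of cells, or subtracted free RNA at 10% of the UMIs of each library. That share was assumed, so it does not measure the part of free RNA in cells. Software was matplotlib 3.10.9, pandas 2.3.3, scipy 1.17.1 and numpy 2.4.6 under Python 3.11.15.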

Additional observations from a re-analysis of the deposited data

Results flagged for a closer look

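Named genes and list members that stood 2-fold or more apart in opposite directions in the epididymal and the inguinal pair are collected here, with the log2 ratio of DFAT over SVF cells. Each pair holds 1 library a side, the iWAT_SVF header names another Cell Ranger version, and the difference between the depots was not tested. List medians are over the members measured in each pair. Lower in eWAT_DFAT and higher in iWAT_DFAT were the interferon response genes *Ifit1* (-2.32 and 2.54), *Isg15* (-1.98 and 4.25), *Oasl2* (-1.12 and 3.13) and *Rtp4* (-1.14 and 2.89), and the list had medians of -0.76 and 1.42. The same held for the early progenitor genes *Ly6c1* (-2.33 and 1.86), *Ly6a* (-2.02 and 1.32) and *Dpp4* (-1.58 and 3.36), with list medians of -0.70 and 1.19, and for the Wnt modulator *Sfrp2* (-1.67 and 6.26).

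Further genes of this kind were the adipogenic factor *Cebpd* (-1.31 and 1.13), the proteoglycan gene *Lum* (-1.86 and 1.36), the chemokine gene *Cxcl12* (-1.70 and 1.78), the monooxygenase gene *Fmo2* (-1.80 and 1.06), *Fos* (-1.81 and 2.12) and *Igfbp3* (-2.53 and 2.53). The opposite order was found for *Ccnd1* (1.21 and -1.05), *Grem1* (2.87 and -3.66) and *Igfbp5* (1.57 and -1.26). Mesothelial marker-carrying cells were 8.07% of eWAT_SVF cells, and they held 59.6% of the *Dpp4* and 70.4% of the *Sfrp2* UMIs of that library. Without the cells carrying markers of another type, the epididymal log2 ratios of *Dpp4* and *Sfrp2* were -0.48 and -0.07, so that neither was 2-fold or more apart in both depots. In that setting the epididymal log2 ratio of *Ly6c1* was -3.19.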

How the results depend on the processing

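The count of genes 2-fold or more higher in eWAT_DFAT was 562 and that of genes 2-fold or more lower in eWAT_DFAT was 595, and both depended on the level minimum and the fold. At a mean of 1 or more CPM they were 1017 and 980, at 20 or more CPM 288 and 310, at 1.5-fold 1390 and 1219, and at 4-fold 168 and 168, since these settings test other numbers of genes or another fold. The other 12 settings gave between 509 and 699 higher and between 577 and 659 lower genes; they included 545 and 601 without the cells carrying adipocyte markers, a setting chosen after seeing the data. Of 107 genes named by rule other than as cell type markers and past 2-fold, 0 took the opposite sign in any setting, and 34 moved by more than 1.5-fold; the other genes in the text were not recomputed one by one. *Car3* moved most, to 7.44 without adipocyte marker-carrying cells, and *Areg* and *Cxcl2* reached 10.48 and 10.63 in cells low in cell cycle genes. In those cells *Prl2c2* was at 8.71, *Enpp2* at 6.76, *Ccl2* at 5.29, *Tnfaip3* at 4.27, *Mmp10* at 3.94 and *Fabp4* at 3.53, and with cells thinned to 5000 UMIs *Adipoq* was at 7.78, *Vstm2a* at 5.94 and *Lama5* at -2.90; the cause was not tested. Of 31 list medians 7 changed sign, all with a median between -0.43 and 0.35, and 0 of the 5 lists with a median of 1 or more in either direction did. The mature adipocyte median ranged from 0.89 to 3.34, the acute phase median from 0.24 to 1.91, and the IGF binding median from -2.19 to -0.57. The mean and the median differed in sign for committed preadipocyte genes, at 0.09 and -0.43, and for 3 lists with a median near 0, namely adipogenic factors, CDK inhibitors and p53 targets, and glycolysis and hypoxia genes.

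No paired analysis was possible because each group has 1 library. For the same reason differences between cultures, animals and batches were not measured, and cell source cannot be told apart from any difference in culture or handling. The floor of a gene without UMIs was 0.0162 CPM in eWAT_DFAT and 0.0152 CPM in eWAT_SVF, so depth limited only genes with few UMIs, such as *Bmp7*. Without the 5% of cells with most UMIs, where doublets would be most frequent, 559 genes were higher and 595 lower.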

Other observations

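A few genes not described above are given here by their levels. *Fabp7*, a fatty acid-binding protein gene listed as a glial marker, was at 17.2 CPM in eWAT_DFAT and 0.592 CPM in eWAT_SVF, while only 4 and 1 cells carried UMIs of 3 or more glial markers. *Mmp9*, which encodes the matrix protease gelatinase B, had a mean below the minimum of 5 CPM, at 4.92 and 0.0354 CPM, and so was *Csf3*, the granulocyte colony-stimulating factor gene, at 9.43 and 0.364 CPM. Genes that respond to oxygen shortage had no common direction: *Egln3*, a prolyl hydroxylase gene, was at 16.8 and 4.04 CPM and *Stc1*, which encodes stanniocalcin 1, at 8.73 and 2.80 CPM, whereas *Adm*, which encodes adrenomedullin, was at 56.1 and 315 CPM, and *Ldha*, lactate dehydrogenase A, was at 951 and 759 CPM. *Mmp9*, *Csf3* and *Stc1* were picked after their values were seen.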
